A study of Mus musculus with 12 samples.

Results

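Col1a1, Col1a2, Col3a1, Col4a1, Col4a2, Sparc, Fn1, Efemp1, Dcn and Lum are 10 genes of the extracellular matrix, the protein and sugar scaffold around cells. They were chosen by name for that function, with earlier results of these data known. All 10 were measured, among 18193 genes that had a probe set mapped to them alone. Together they had 19 probe sets, and the brightest probe set stands for a gene unless another is named. Striatal RNA came from 12 C57BL/6 mice, each hybridised to its own Affymetrix Mouse Genome 430 2.0 array. The study set HdhQ92/Q92 mice (Q92 here) against wild-type mice at 2 ages. A Q92 mouse carries 92 CAG repeats, taken from the first exon of the human Huntington's disease gene, inside its own Hdh gene (now Htt), so the altered protein is made wherever that gene is active. Every group held 3 mice. The wild-type mice of 3 months (wt_3m_436, wt_3m_438 and wt_3m_467) were 100 to 103 days old and comprised 1 female and 2 males. The Q92 mice of 3 months (Q92_3m_439, Q92_3m_440 and Q92_3m_466) were 100 to 103 days old, with 2 females and 1 male. At 18 months the wild-type mice (wt_18m_9, wt_18m_12 and wt_18m_17) were 596 to 604 days old and the Q92 mice (Q92_18m_11, Q92_18m_25 and Q92_18m_66) 567 to 596 days, each group again with 2 females and 1 male.

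In the brain, matrix proteins of this kind lie mainly in the basement membranes of blood vessels and in the meninges, the sheaths around the tissue, while the space between neurons holds little fibrillar collagen. Fibrillar collagens and the small proteoglycans that coat them are made chiefly by fibroblasts of the meninges and vessel walls. Type IV collagen is laid down by endothelial cells and pericytes, and astrocytes secrete SPARC. The striatum is the region most affected in Huntington's disease, where its projection neurons are lost.

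The promoters of 3 members are shown because the text turns on them. Efemp1 had the only member difference that passed the test, and Col4a1 and Col4a2 lie head to head and share a promoter region. RefSeq (GRCm38.p6) gave a window from 250 bases before to 50 bases after the start for 6 of the 10 members (Col1a2, Col3a1, Col4a1, Col4a2, Sparc and Efemp1). The windows below run 5′ to 3′ on the strand of each gene. Efemp1 lies at chr11:28852955-28853254 on the plus strand, Col4a1 at chr8:11312777-11313076 on the minus strand and Col4a2 at chr8:11312555-11312854 on the plus strand. Capitals in Efemp1 mark the match to a GC box, and capitals in Col4a1 and Col4a2 mark the bases that both windows hold, read on opposite strands.
Efemp1: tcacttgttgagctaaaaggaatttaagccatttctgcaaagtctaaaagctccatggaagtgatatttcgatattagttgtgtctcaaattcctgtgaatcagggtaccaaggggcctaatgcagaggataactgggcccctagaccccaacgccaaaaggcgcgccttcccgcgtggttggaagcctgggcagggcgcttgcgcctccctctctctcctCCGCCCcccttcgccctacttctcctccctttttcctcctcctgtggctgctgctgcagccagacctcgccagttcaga
Col4a1: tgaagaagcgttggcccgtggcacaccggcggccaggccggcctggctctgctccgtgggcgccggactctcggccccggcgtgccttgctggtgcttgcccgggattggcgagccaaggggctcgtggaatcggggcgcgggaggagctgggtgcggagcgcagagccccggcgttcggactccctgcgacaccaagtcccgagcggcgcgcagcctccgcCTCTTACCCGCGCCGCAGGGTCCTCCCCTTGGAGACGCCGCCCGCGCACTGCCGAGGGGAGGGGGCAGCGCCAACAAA
Col4a2: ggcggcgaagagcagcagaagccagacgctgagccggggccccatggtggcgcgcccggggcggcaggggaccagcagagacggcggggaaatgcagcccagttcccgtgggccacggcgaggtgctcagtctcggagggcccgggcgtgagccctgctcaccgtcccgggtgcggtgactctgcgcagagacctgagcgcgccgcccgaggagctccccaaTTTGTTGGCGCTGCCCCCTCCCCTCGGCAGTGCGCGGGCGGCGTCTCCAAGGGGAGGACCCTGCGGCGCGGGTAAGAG
The starts of Col4a1 and Col4a2 are 21 bases apart, and their windows share 78 bases, from 11312777 to 11312854 of chromosome 8. Searched letters were TATAAA for the TATA box, CCAAT for the box of that name and GGGCGG for the GC box, each on both strands. Among all 32851 windows of this length, 13.6% held the first, 37.4% the second and 35.7% the third. The Efemp1 window held 1 GC box, on the opposite strand 29 bases before the start, and neither of the other motifs. Col4a1 held 1 CCAAT box and 1 GC box, and Col4a2 held 1 CCAAT box and 3 GC boxes. Col1a2 held 2 CCAAT boxes and 2 GC boxes, Col3a1 held 1 TATA box, and Sparc held none of the letters searched. These are matches of letters in a window and say nothing of binding.

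The values are log2 signals, so a difference of 1 is a doubling. A signal depends on the probes and is no measure of abundance that can be set against another gene's. For orientation, the 9 probe sets of Y-linked genes read 2.12 to 3.28 in the 7 females (median 2.70), where their genes are absent. The mean signal of Col3a1 (3.20) lay within that range and those of Col1a1 (3.64) and Lum (3.76) lay just above it. Differences of such dim probe sets can be compressed. The other 7 members averaged from 5.48 (Col1a2) to 10.53 (Sparc).

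The arrays correlated with each other at 0.983 to 0.995 over all probe sets, and the projection neuron gene Ppp1r1b read 9.49 to 11.3, a high signal in every mouse. In 18-month Q92 mice all 10 of the measured striatal projection neuron markers (12 listed) were lower than in wild type, with a median difference of -0.92. A probe set for Htt averaged 7.76, 8.06, 7.75 and 7.85 in the order of groups given above and does not check the inserted repeat. Markers of the choroid plexus, the tissue of the adjoining ventricle, set 2 arrays apart. Their mean stood 1.92 above the mean of all arrays in mouse Q92_3m_439 and 1.70 above it in mouse wt_18m_12. It was 0.53 above in mouse Q92_18m_25 and below the mean on the other 9 arrays. Cortical neuron markers were raised by 0.82 in mouse Q92_18m_11 and by 0.72 in mouse Q92_18m_25. Values without mice Q92_3m_439 and wt_18m_12 stand beside the results that their removal moved most. In tissue RNA, fewer cells of a type and less RNA per cell cannot be told apart.

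**Figure D1:**
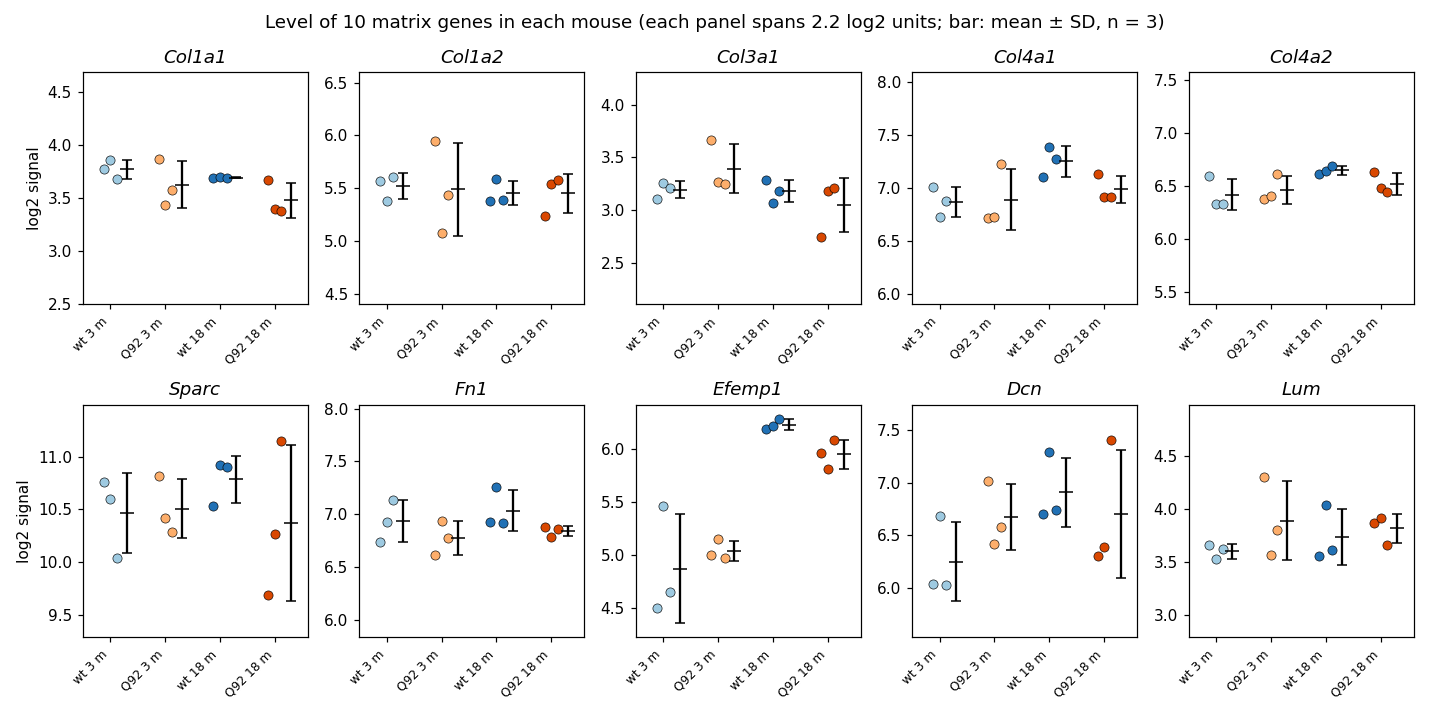
Log2 signal of each of the 10 matrix genes (vertical axis; every panel spans 2.2 log2 units) in the 4 groups (horizontal axis; wt, wild type; m, months). Points are single mice and bars show the mean ± SD (n = 3). Efemp1 reads 5.81 to 6.29 in the 6 mice of 18 months and 4.50 to 5.46 in the 6 of 3 months, whereas Sparc spreads over 9.69 to 11.15 within the 18-month Q92 group alone.

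Efemp1, which encodes fibulin-3, a secreted glycoprotein of basement membranes and elastic fibres, rose with age in wild-type striatum. Its signal was 4.50, 5.46 and 4.65 in mice wt_3m_436, wt_3m_438 and wt_3m_467 at 3 months, and 6.19, 6.22 and 6.29 in mice wt_18m_9, wt_18m_12 and wt_18m_17 at 18 months. The groups did not overlap, and the spread among young wild-type mice (SD 0.52) came mostly from female mouse wt_3m_438. The difference was 1.36 (SE 0.19, 95% interval 0.95 to 1.78), or 2.57-fold, with an adjusted p of 0.0304 over 45037 probe sets. It was number 13 by p among all probe sets. Of the 10 members this was the only one to pass, against 0.0511% of all probe sets and 0.0715% of genes by their brightest probe set.

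In Q92 mice, Efemp1 read 5.00, 5.15 and 4.97 at 3 months (Q92_3m_439, Q92_3m_440 and Q92_3m_466) and 5.96, 5.81 and 6.08 at 18 months (Q92_18m_11, Q92_18m_25 and Q92_18m_66). These groups did not overlap either, and the older mice stood 0.91 higher (SE 0.19, interval 0.50 to 1.33), or 1.88-fold. With an adjusted p of 0.0956 this did not pass. No member passed in this comparison, where 0.206% of probe sets and 0.264% of genes did. The wild-type rise and the Q92 difference were not shown to differ: the interaction of genotype and age was -0.45 (SE 0.27, interval -1.04 to 0.14, adjusted p = 0.950). In that contrast 0% of probe sets and 0% of genes passed.

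Whether Efemp1 passed in wild type depended on the mice included. When each of the 12 mice was left out in turn, the difference ranged from 1.18 to 1.66 and the adjusted p from 0.000285 to 0.122. It passed in 3 of the 12 fits, those without mouse wt_3m_438, mouse Q92_18m_25 and mouse Q92_18m_66, and did not pass without any 1 of the other 9. The wild-type groups differed in sex, and with sex as a covariate the difference was 1.28 (adjusted p = 0.0769). Without mice wt_18m_12 and Q92_3m_439, the arrays richest in choroid plexus markers, it was 1.37 (adjusted p = 0.168). In Q92 mice the leave-one-out differences ran from 0.85 to 0.98, and the fit without mouse wt_3m_438 was the only one to pass (adjusted p = 0.00725), although that mouse is in neither group compared and enters this fit through the shared estimate of the spread alone.

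**Figure D2:**
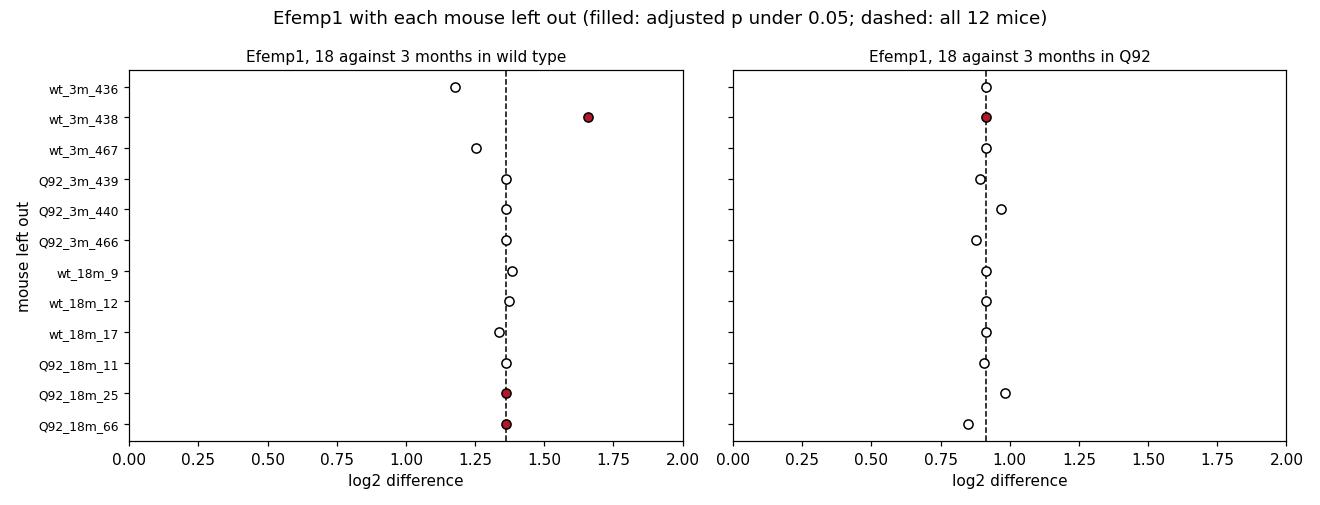
Efemp1 log2 difference between 18 and 3 months (horizontal axis) in wild-type (left) and Q92 mice (right) with the mouse named on the vertical axis left out. Filled points have an adjusted p under 0.05, and the dashed line is the difference over all 12 mice. The points lie between 1.18 and 1.66 on the left and between 0.85 and 0.98 on the right, and 4 of the 24 are filled.

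Most markers of several cell types also had higher means in old than in young wild-type mice. Of 22 markers of leptomeningeal and perivascular fibroblasts, 18 were higher at 18 months (median difference 0.28, none passing), and their summed signal ranged from 3454 to 4558 at 3 months and from 4661 to 4977 at 18 months. In Q92 mice it ranged from 3356 to 4753 and from 3465 to 4791. Of the 9 measured microglial markers (10 listed), 8 were higher in old wild-type mice (median 0.40), with summed signals of 2368 to 2696 at 3 months and 3164 to 4471 at 18 months. Astrocyte markers were higher for 6 of 9 (median 0.11, 1 passing). Their mean relative to all arrays was -0.18 to -0.03 in young and 0.17 to 0.21 in old wild-type mice, without overlap. Their summed signal did overlap, at 13494.5 to 14991.1 in young and 14413.7 to 15228.4 in old wild-type mice. Gfap, a gene of this list, averaged 6.67 in young and 8.54 in old wild-type mice. Endothelial markers were higher for 11 of 13 (median 0.10) and oligodendrocyte markers for 8 of 9 (median 0.13). Choroid plexus markers were higher for 13 of 14 (median 0.57), with wt_18m_12 the only old wild-type mouse above the mean of all arrays. Pericyte and vascular smooth muscle markers were higher for 6 of 14 (median -0.04), ependymal markers for 4 of 8 and projection neuron markers for 4 of 10. Cortical neuron markers were higher for 5 of 9 and blood markers for 0 of 3. Once the group means were taken off, Efemp1 and the mean of the fibroblast markers had a correlation of 0.00353 over the 12 arrays (rho = 0.00699, exact permutation p = 0.992 and 1.00). With the microglial markers the correlation of Efemp1 was r = 0.46 (exact permutation p = 0.00309, adjusted p = 0.170) and rho = 0.57 (p = 0.0648), and r = 0.55 without the 2 farthest arrays. With the endothelial markers it was r = 0.66 (exact permutation p = 0.211) and rho = 0.62 (p = 0.157), and r = 0.46 without the 2 farthest. Over the other lists r ran from -0.53 (ependyma) to 0.64 (pericytes and vascular smooth muscle). The part of these cell types in the rise was not tested further.

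Type IV collagen is the network-forming collagen of basement membranes, assembled from the chains that Col4a1 and Col4a2 encode. Col4a1 read 7.00, 6.72 and 6.87 in young wild-type mice and 7.10, 7.39 and 7.27 in old ones. Every old mouse was above every young one. The difference was 0.38 (SE 0.14, interval 0.07 to 0.69) and did not pass (adjusted p = 0.392). A dimmer Col4a1 probe set differed by 0.11 (adjusted p = 0.746), and its deviations from the group means barely followed those of the brighter one (r = 0.08, 12 arrays). Col4a2 read 6.59, 6.33 and 6.33 in young and 6.61, 6.64 and 6.69 in old wild-type mice, a difference of 0.23 (SE 0.10, interval 0.0043 to 0.45, adjusted p = 0.467), again without overlap.

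In Q92 mice the ages overlapped for both chains. Col4a1 read 6.71, 6.73 and 7.23 at 3 months and 7.13, 6.92 and 6.91 at 18 months (difference 0.10, SE 0.14, adjusted p = 0.873). Col4a2 read 6.37, 6.40 and 6.61 at 3 months and 6.64, 6.48 and 6.44 at 18 months (difference 0.05, SE 0.10, adjusted p = 0.906). Mouse Q92_3m_466 was the highest young Q92 mouse for both, and mouse Q92_18m_11 the highest old one. The deviations of the chains from the group means correlated at r = 0.84 (exact permutation p = 0.00849) and rho = 0.81 (p = 0.00154) over 12 arrays. Leaving out the 2 mice farthest from the median Col4a1 deviation gave r = 0.72. This was the highest of the 45 correlations among members, which had a median of 0.08, and none passed after adjustment over the 45 (adjusted p = 0.382 for r and 0.0693 for rho). The head-to-head windows printed above hold the starts of this pair. Cortical neuron markers correlated with Col4a1 at r = 0.54 (exact permutation p = 0.131, adjusted p = 0.497 over the member and marker pairs). For Col4a2 that correlation was r = 0.68 (exact permutation p = 0.0309, adjusted p = 0.318). Mice Q92_3m_466 and Q92_18m_11 also had the highest cortical marker means of their groups (0.28 and 0.82). The part of the windows or of cortical tissue in the correlation of the chains was not tested.

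The fibrillar collagens form the tensile fibres of connective tissue. Col1a1 and Col1a2 encode the chains of type I collagen, and Col3a1 that of type III, which runs with it in vessel walls. None of them passed for age in wild type. Col1a1 read 3.77, 3.86 and 3.68 in young and 3.69, 3.70 and 3.69 in old wild-type mice (difference -0.08, SE 0.12, adjusted p = 0.838). Col1a2 read 5.57, 5.38 and 5.60, then 5.38, 5.59 and 5.39 (difference -0.06, SE 0.18, adjusted p = 0.921). Col3a1 read 3.10, 3.26 and 3.22, then 3.28, 3.07 and 3.19 (difference -0.01, SE 0.14, adjusted p = 0.981), and the sign of this last difference turned under quantile normalisation and under a shift of the arrays to a common median. By the brightest probe set, the ages overlapped in each gene. A dimmer Col1a2 probe set, with a mean of 2.72, was lower in every old than in every young wild-type mouse (difference -0.29, adjusted p = 0.353). Another, with a mean of 3.47, overlapped (difference 0.23, adjusted p = 0.581).

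Among Q92 mice, Col3a1 was the fibrillar collagen with separate ages by the brightest probe set. A dimmer Col3a1 probe set overlapped (difference -0.17, adjusted p = 0.530). A dimmer Col1a2 probe set was lower in every old than in every young Q92 mouse (difference -0.19, adjusted p = 0.687). By its brightest probe set Col3a1 read 3.67, 3.27 and 3.25 in mice Q92_3m_439, Q92_3m_440 and Q92_3m_466 and 2.75, 3.19 and 3.21 in mice Q92_18m_11, Q92_18m_25 and Q92_18m_66. All the older mice were lower, with a difference of -0.35 (SE 0.14, interval -0.65 to -0.04, adjusted p = 0.411), and mice Q92_3m_439 and Q92_18m_11 were the extremes. Without choroid-rich mice wt_18m_12 and Q92_3m_439 the difference was -0.21 (adjusted p = 0.806), and the mean signal of Col3a1 was within the range of the absent Y-linked genes. Col1a1 read 3.87, 3.43 and 3.58 in young and 3.67, 3.39 and 3.37 in old Q92 mice (difference -0.15, SE 0.12, adjusted p = 0.731), and without those mice the difference was -0.03 (adjusted p = 0.988). Col1a2 spread from 5.08 (mouse Q92_3m_440) to 5.95 (mouse Q92_3m_439) at 3 months and from 5.24 to 5.58 at 18 months (difference -0.04, SE 0.18, adjusted p = 0.968), which without them was 0.19 (adjusted p = 0.841).

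SPARC is a collagen-binding matricellular protein that regulates matrix assembly, and fibronectin, from Fn1, is the adhesive glycoprotein that integrins bind. Sparc had the widest spread within groups of all members (pooled SD 0.45). It read 10.76, 10.60 and 10.04 in young and 10.53, 10.92 and 10.90 in old wild-type mice (difference 0.32, SE 0.30, interval -0.34 to 0.97, adjusted p = 0.730). In Q92 mice it read 10.82, 10.42 and 10.28 at 3 months and 9.69, 10.27 and 11.15 at 18 months (difference -0.14, SE 0.30, adjusted p = 0.919). The lowest and the highest Sparc signals of the study were thus in the same group, in mice Q92_18m_11 and Q92_18m_66. A dimmer Sparc probe set, with a mean of 8.92, followed the brightest closely (r = 0.97 between deviations). Another, with a mean of 5.68, did so only weakly (r = 0.18). Its age difference was -0.08 in wild type (adjusted p = 0.830) and -0.10 in Q92 mice (adjusted p = 0.825).

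By its brightest probe set, Fn1 differed between ages by less than the spread of the mice. Fn1 read 6.74, 6.93 and 7.13 in young and 6.93, 7.26 and 6.92 in old wild-type mice (difference 0.10, SE 0.13, adjusted p = 0.800). In Q92 mice it read 6.62, 6.94 and 6.78, then 6.88, 6.79 and 6.86 (difference 0.06, SE 0.13, adjusted p = 0.913). The ages overlapped in both genotypes. A dimmer Fn1 probe set, with a mean of 3.49, read higher in every old than in every young wild-type mouse (difference 0.23, SE 0.10, adjusted p = 0.459) and overlapped in Q92 mice (0.03, adjusted p = 0.953). Its deviations correlated with those of the brighter one at r = 0.43.

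Decorin and lumican, from Dcn and Lum, are small leucine-rich proteoglycans that bind collagen fibrils and set their spacing. Dcn read 6.04, 6.68 and 6.03 in young and 6.71, 7.29 and 6.74 in old wild-type mice. The groups did not overlap, though young mouse wt_3m_438 was close to old mouse wt_18m_9. The difference was 0.66 (SE 0.28, interval 0.04 to 1.28), or 1.58-fold, and did not pass (adjusted p = 0.451). A dimmer Dcn probe set, with a mean of 3.24, was lower in every old than in every young wild-type mouse (difference -0.23, SE 0.11, adjusted p = 0.479). Its deviations correlated with those of the brighter one at r = 0.20. In Q92 mice Dcn read 7.02, 6.42 and 6.58 at 3 months and 6.31, 6.39 and 7.40 at 18 months (difference 0.03, SE 0.28, adjusted p = 0.985), a difference whose sign turned under quantile normalisation. Without mice wt_18m_12 and Q92_3m_439 the wild-type difference in Dcn was 0.47 (adjusted p = 0.564). Lum read 3.66, 3.53 and 3.62 in young and 3.56, 4.04 and 3.62 in old wild-type mice (difference 0.14, SE 0.17, adjusted p = 0.801). In Q92 mice it read 4.30, 3.57 and 3.80, then 3.87, 3.92 and 3.66 (difference -0.07, SE 0.17, adjusted p = 0.928). The highest Lum value of each of these pairs of groups was on a choroid-rich array, mouse wt_18m_12 among wild type and mouse Q92_3m_439 among Q92. Without both, the Lum differences were -0.01 in wild type and 0.13 in Q92 (adjusted p = 0.973 and 0.873), each with its sign turned.

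Over the members, 7 were higher and 3 lower at 18 months in wild type (median difference 0.18, against -0.01 over all genes). The groups did not overlap for 4 of the 10 (Efemp1, Col4a1, Col4a2 and Dcn), all higher with age, where 7.53% of probe sets separated upwards and 16.9% in either direction. These 4 were also the members with an unadjusted p under 0.05, a mark that 10.6% of probe sets reached. In Q92 mice, 5 members were higher and 5 lower (median -0.01, against 0.01 over all genes). Efemp1 separated upwards and Col3a1 downwards, where 7.83% of probe sets separated upwards, 7.62% downwards and 15.4% in all. Efemp1 and Col3a1, 2 of the 10, also had an unadjusted p under 0.05, against 10.6% of probe sets. Without mice wt_18m_12 and Q92_3m_439, 6 members were higher at 18 months in wild type and 7 in Q92.

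**Figure D3:**
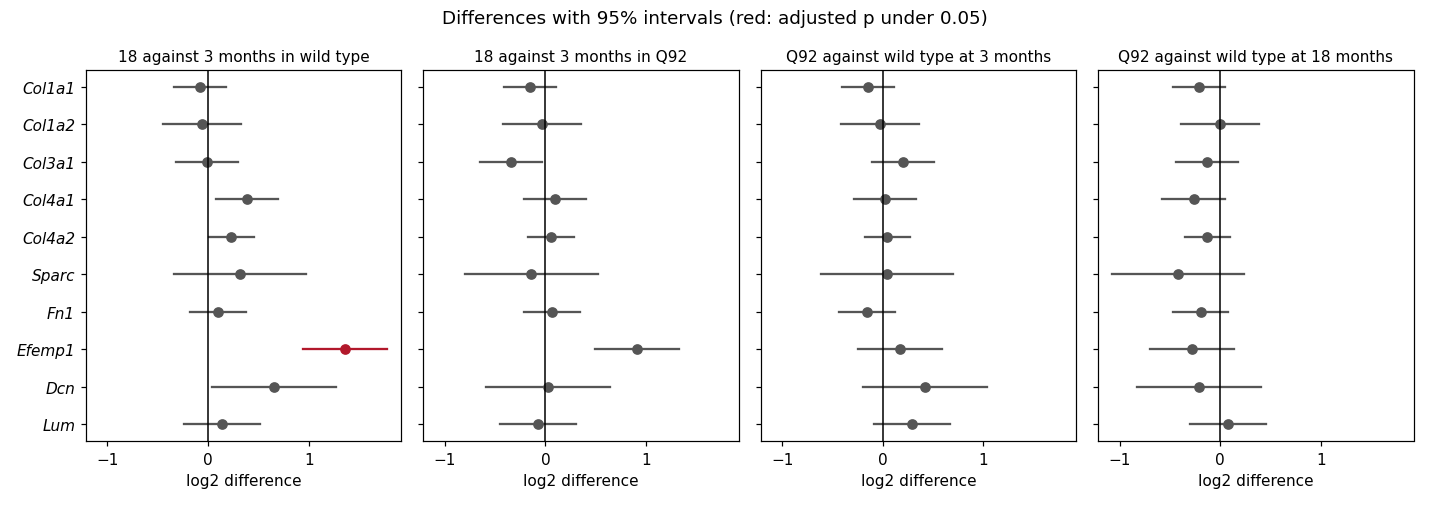
Log2 differences of the 10 matrix genes (points) with their 95% intervals (lines) for age within each genotype and for Q92 against wild type at each age (4 panels with a common horizontal axis). The red point, Efemp1 in wild type at 1.36, is the only one with an adjusted p under 0.05. In the comparison of genotypes at 18 months, 9 of 10 points lie at or left of 0.

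Between genotypes at 18 months no member passed. The adjusted p ran from 0.700 to 0.999, and 0.0533% of probe sets and 0.077% of genes passed. Q92 mice had the lower mean for 9 of the 10 members, the exception being Lum, with a median difference of -0.20 against -0.00 over all genes. Col1a2, at -0.0020, had no settled sign, since it turned under quantile normalisation, with choroid plexus markers as a covariate and without mice wt_18m_12 and Q92_3m_439. Another Col1a2 probe set, with a mean of 3.47, was lower in every old Q92 than in every old wild-type mouse (difference -0.33, SE 0.14, adjusted p = 0.571), and its deviations did not follow those of the brightest (r = 0.0078). For Sparc the difference was -0.42 (interval -1.07 to 0.24, adjusted p = 0.809), and it rested on single mice. It was -0.07 without Q92_18m_11 (adjusted p = 0.986) and -0.81 without Q92_18m_66 (adjusted p = 0.308). The dimmer Sparc probe sets differed by -0.64 (mean 8.92, adjusted p = 0.722) and -0.04 (mean 5.68, adjusted p = 0.977). Efemp1 (-0.28, interval -0.70 to 0.14, adjusted p = 0.788), Col4a1 (-0.26, interval -0.57 to 0.04, adjusted p = 0.700), Col1a1 (-0.21, adjusted p = 0.711), Dcn (-0.21, adjusted p = 0.929) and Fn1 (-0.19, adjusted p = 0.774) were lower too. Without wt_18m_12, which had the highest Dcn and Fn1 of its group, the differences were -0.02 for Dcn and -0.08 for Fn1 (adjusted p = 0.996 and 0.943). For Dcn it was also -0.01 without Q92_18m_11 and -0.56 without Q92_18m_66 (adjusted p = 0.999 and 0.508). Without mice wt_18m_12 and Q92_3m_439 together, 8 of the 10 were lower. Col3a1 and Col4a2 each differed by -0.13 (adjusted p = 0.900 and 0.835).

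By the brightest probe set, every old Q92 mouse was below every old wild-type mouse for Efemp1, Col1a1 and Fn1. That is 3 of 10 members, where 6.76% of probe sets separated downwards and 13.8% in all, and no member had an unadjusted p under 0.05, against 7.9% of probe sets. The margins were small: the lowest wild-type and highest Q92 values were 3.69 and 3.67 for Col1a1, 6.92 and 6.88 for Fn1, and 6.19 and 6.08 for Efemp1. Efemp1 had 1 probe set. The dimmer probe sets of Col1a1 (difference -0.05, adjusted p = 0.960) and Fn1 (-0.18, adjusted p = 0.730) overlapped between the genotypes. Markers of astrocytes were also lower, 9 of the 9 measured (10 listed, median -0.24), with a summed signal of 14414 to 15228 in wild type and 12764 to 13486 in Q92 mice. Of the 22 fibroblast markers 20 were lower (median -0.19), as were all 13 measured endothelial markers (15 listed, median -0.17, summed signal 2106 to 2372 in wild type and 1934 to 2264 in Q92). Microglial markers were lower for 7 of 9 (median -0.23, summed signal 3164 to 4471 in wild type and 2531 to 4360 in Q92) and oligodendrocyte markers for 7 of 9 (median -0.13), while cortical neuron markers were higher for 8 of 9 (median 0.26). The part of these cell types in the members' differences was not tested.

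At 3 months no member passed or separated. All adjusted p values were 1.00, and 0.0111% of probe sets and 0.0165% of genes passed. Of the 10, 7 were higher and 3 lower in Q92 (median 0.04, against -0.02 over all genes), from -0.16 for Fn1 to 0.42 for Dcn (SE 0.28, interval -0.19 to 1.04). Groups without overlap made up 6.85% of probe sets, and 2.64% had an unadjusted p under 0.05. Lum stood 0.29 higher in Q92 (SE 0.17, interval -0.09 to 0.66) and Col3a1 0.20 higher (SE 0.14, interval -0.11 to 0.51). Dcn, Lum and Col3a1 had their highest value of this comparison in choroid-rich mouse Q92_3m_439, and without it and wt_18m_12 they differed by 0.25, 0.08 and 0.07 (adjusted p = 0.993 each). In that fit 6 members were higher and 4 lower, with Sparc at -0.12 in place of 0.04 and Col1a2 at -0.26 in place of -0.03. Efemp1 differed by 0.17 (SE 0.19, interval -0.25 to 0.59).

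The interaction, the genotype difference at 18 months minus that at 3 months, shares its samples with the comparisons above. It was below 0 for 9 of the 10 members (median -0.25, against 0.02 over all genes), the exception being Col1a2 at 0.03, and passed for none (adjusted p 0.950 to 0.995). No member had an unadjusted p under 0.05, which 5.18% of probe sets had. The estimate was -0.63 for Dcn (SE 0.40, interval -1.50 to 0.24), -0.45 for Sparc (SE 0.43, interval -1.38 to 0.47) and -0.33 for Col3a1 (SE 0.20, interval -0.77 to 0.10). Without mice wt_18m_12 and Q92_3m_439 it was -0.27 for Dcn, -0.23 for Sparc and -0.25 for Col3a1 (adjusted p = 0.898, 0.932 and 0.800), and 7 of the 10 members were below 0.

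Lum read highest on both choroid-rich arrays and Col1a2 on that of mouse Q92_3m_439, though no correlation with choroid plexus markers passed after adjustment. The 14 measured markers of that tissue (15 listed) had a summed signal of 1280 to 2150 in young wild-type, 2502 to 15067 in young Q92, 710 to 15270 in old wild-type and 3810 to 10145 in old Q92 mice, and Ttr, its most abundant transcript, read 8.63 to 13.76. With the group means taken off, Lum correlated with the mean of these markers at r = 0.92 (exact permutation p = 0.0208) and rho = 0.86 (p = 0.0247), and at 0.76 without the 2 arrays farthest from the median. Col1a2 correlated at r = 0.78 (exact permutation p = 0.00926) and rho = 0.80 (p = 0.00617), and at 0.66 without them. With the ependymal markers r was 0.68 for Col1a2 (exact permutation p = 0.00540, 0.78 without the 2 farthest arrays) and 0.75 for Lum (exact permutation p = 0.00926, 0.63 without them). With the fibroblast markers r was 0.84 for Lum (exact permutation p = 0.0694, 0.49 without them) and 0.69 for Col1a2 (exact permutation p = 0.127, 0.29 without them). The p-values were adjusted over the 110 pairs of a member and a marker list (adjusted p = 0.318 and 0.204 for choroid plexus, 0.204 and 0.198 for ependyma and 0.424 and 0.497 for fibroblasts, Lum first). Without mice wt_18m_12 and Q92_3m_439 the sign of the Lum estimate for the change with age turned, to 0.15 from -0.21 (adjusted p = 0.851 and 0.961).

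The highest correlation of these pairs was that of Sparc with the astrocyte markers, which did not pass after adjustment either. Their deviations correlated at r = 0.96 and rho = 0.94, each with an exact permutation p of 0.000772, the smallest that 1296 rearrangements within groups can give, and r was 0.89 without the 2 farthest arrays. The adjusted p over the 110 pairs was 0.0849. Mice Q92_18m_11 and Q92_18m_66, with the lowest and highest Sparc, lay at the 2 ends of the astrocyte marker deviations as well. Dcn correlated with the same markers at r = 0.78 (exact permutation p = 0.0262, adjusted p = 0.318, 0.54 without the 2 farthest arrays) and with Sparc at r = 0.77 (exact permutation p = 0.0525, adjusted p = 0.394, 0.54 without them). Astrocyte markers were not the only ones that Sparc followed. Its r was 0.75 with oligodendrocyte markers (exact permutation p = 0.0347, adjusted p = 0.318) and 0.70 with microglial markers (adjusted p = 0.497). It was -0.71 with projection neuron and -0.72 with cortical neuron markers (adjusted p = 0.497 each). For Dcn, r with cortical neuron markers was -0.76 (exact permutation p = 0.0463, adjusted p = 0.318).

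**Figure D4:**
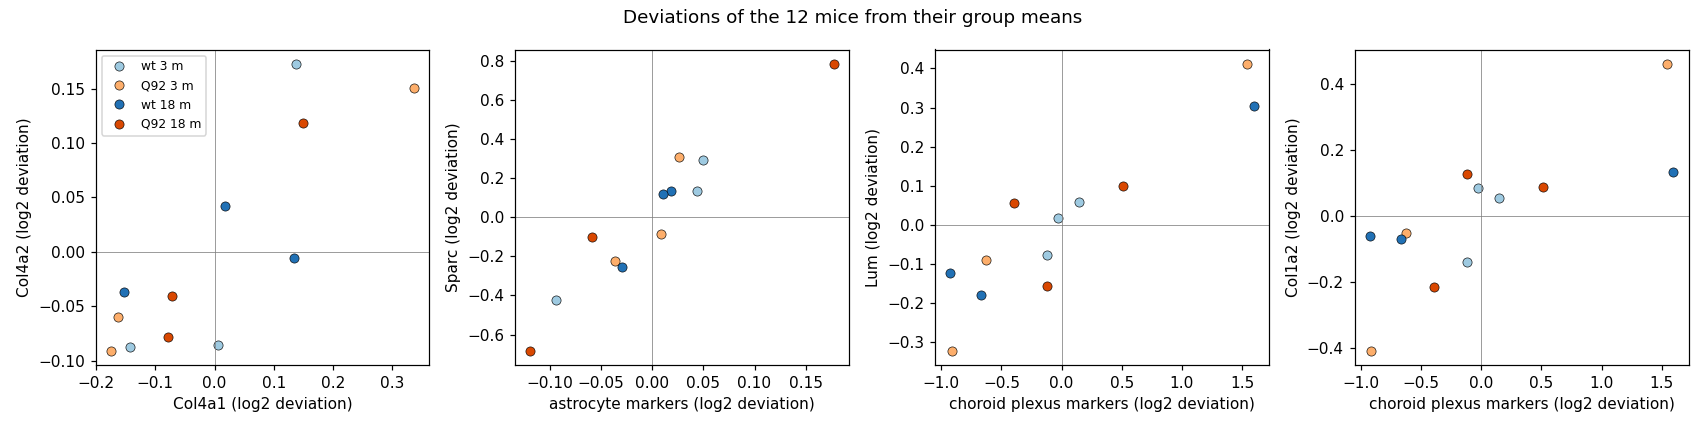
Deviation of each of the 12 mice from its group mean, in log2 units, for Col4a2 against Col4a1, Sparc against the mean of 9 astrocyte markers, and Lum and Col1a2 against the mean of 14 choroid plexus markers (points coloured by group; wt, wild type; m, months). The points rise from lower left to upper right in all 4 panels (r = 0.84, 0.96, 0.92 and 0.78), and in the choroid plexus panels mice Q92_3m_439 and wt_18m_12 lie far to the right.

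Among 10909 genes above the 40th percentile of signal, those whose deviations over the 12 arrays were most like each member's were listed as a description, with no test. For Efemp1 they were Vldlr (r = 0.95), Dph7 (0.94) and Edil3 (0.93). For Sparc they were Itpkb (0.96), Car14 (0.95) and Vangl1 (0.95). Lum was most like Ccdc3 and Atp2b3 (0.96 each) and Igfbp2 (0.95), the last a gene of the fibroblast marker list. Dcn was most like Cercam (0.94), Col3a1 like Fmo2 (0.97), Col4a2 like Nova1 (0.96), Col1a2 like Frs3 (0.96) and Col4a1 like Susd2 (0.90).

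Beyond the members, 178 further matrix genes were listed and 168 measured. Of these 1 passed in old against young wild-type mice, Itgb5, and none in the other contrasts. Itgb5 encodes integrin β5, a receptor chain that binds vitronectin. It read 7.46, 7.51 and 7.64 in young and 8.18, 8.29 and 8.40 in old wild-type mice, without overlap. The rise was 0.75 (SE 0.10), or 1.68-fold, with an adjusted p of 0.0304, and 1 of its 3 other probe sets passed too (0.71, adjusted p = 0.0485). In Q92 mice the difference was 0.14 (SE 0.10, adjusted p = 0.694), and the interaction of genotype and age was -0.61 (SE 0.14, adjusted p = 0.729). Like Efemp1, it kept its call in 3 of the 12 fits that left out a mouse (difference 0.69 to 0.80, adjusted p 0.0105 to 0.129). It also lost it with sex as a covariate (0.74, adjusted p = 0.0769) and without mice wt_18m_12 and Q92_3m_439 (0.75, adjusted p = 0.155).

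In old against young wild-type mice the other lists had no gene that passed, and 97 of the 168 had a higher mean (median 0.04, against -0.01 over all genes). Genes of TGF-beta signalling, a pathway known to drive matrix synthesis, were higher for 11 of 14 genes (median 0.19), with Tgfbr2 at 0.64 (adjusted p = 0.212) and Tgfbr1 at 0.56 (adjusted p = 0.225). Among 18 further fibrillar and associated collagens 10 were higher (median 0.02), with Col6a3 at 0.62 (adjusted p = 0.359). Basement membrane genes besides the members split 9 higher to 10 lower (median -0.04), with Nid1, which encodes the laminin binder nidogen, at 0.27 (adjusted p = 0.467). Of 10 further leucine-rich proteoglycans 4 were higher, with Prelp at 0.64 (adjusted p = 0.417). Among 23 collagen-processing genes 16 were higher (median 0.06), with Pcolce, an enhancer of procollagen cleavage, at 0.73 (adjusted p = 0.532).

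In old Q92 against old wild-type mice 110 of the 168 were lower (median -0.08, against -0.00 over all genes), and none passed. The TGF-beta list was lower for 12 of 14 genes (median -0.19), with the receptor Acvrl1 at -0.67 (adjusted p = 0.364). Genes of perineuronal nets and other matrix of neural tissue were lower for 12 of 14 (median -0.15), with the proteoglycan gene Vcan at -0.47 (adjusted p = 0.262) and Reln at -0.49 (adjusted p = 0.541). Collagen folding and processing genes were lower for 17 of 23 (median -0.12), with Adamts3, a procollagen peptidase, at -0.77 (adjusted p = 0.273). Matricellular and elastic fibre genes split 14 higher to 15 lower, with Fbln5, a fibulin like Efemp1, at -0.76 (adjusted p = 0.293). Among matrix proteases and their inhibitors 10 of 17 were lower, with the protease inhibitor gene Reck at -0.45 (adjusted p = 0.291), and 15 of 24 receptors were lower (median -0.05). With age in Q92 mice 99 of the 168 were lower (median -0.04), and at 3 months 96 were higher in Q92 than in wild type (median 0.02).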

How the data were processed

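Each of the 12 arrays measured striatal RNA of 1 mouse. The authors deposited 1 log2 signal for each probe set and array, made with RMA and the affy package, per the submitters' processing notes. Versions and whether all arrays were normalised together are not given in the sources used here. Since RMA equalises the arrays, a difference is relative to the other genes. Of 45101 probe sets, 64 controls were left out. limma 3.58.1 (R 4.3.3) fitted 1 mean per group over all arrays (8 residual and 4.50 prior degrees of freedom), with Benjamini-Hochberg adjustment over 45037 probe sets and a threshold of 0.05; no filter was used. Probe sets with 1 gene numbered 34945, with several 932 and with none 9160. With 3 mice per group, the median SE of a group difference was 0.12. Members and gene lists were chosen with earlier results of these data known. Text names all members, passing genes of each list or else at most 2 with the largest difference, and the 3 genes most like a member. The fit was tested on simulated data with changes added in old wild-type mice. Of 50 probe sets changed by 0.5, 36% passed in the right direction, and of 50 changed by 1, 90% did. The simulation gave 9 false calls in that contrast.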

Additional observations from a re-analysis of the deposited data

How the results depend on the processing

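Of the 10 members, 1 (Efemp1) passed in old against young wild-type mice. That count was 0 after quantile normalisation (Efemp1 1.36, adjusted p = 0.0503), with sex as a covariate (1.28, 0.0769), with only the arrays compared (1.36, 0.204), with choroid plexus markers as a covariate (1.39, 0.0533) and without both arrays highest in those markers (1.37, 0.168), an alternative chosen after seeing the data. It ranged from 0 to 1 when single mice were left out. It stayed at 1 with arrays shifted to a common median, dim probe sets left out, an intensity trend, array weights, the mean of a gene's probe sets or 1 probe set per gene (adjusted p 0.0141 to 0.0340). In Q92 mice the count was 0, but 1 (Efemp1, 0.91, adjusted p = 0.0466) with only the arrays compared, and 0 to 1 with single mice left out. Between genotypes and for the change with age it was 0 throughout. Of 1145 alternative member differences 69 changed sign, none of them called in either fit, and those were at most 0.21 in size in the main analysis. The probe sets that passed ranged over the alternatives from 0 to 56 (main 23) in wild-type ageing, 7 to 125 (93) in Q92 ageing, 4 to 56 (24) between genotypes at 18 months, 1 to 5 (5) at 3 months and 0 to 3 (0) for the change with age. Itgb5 lost its call under the same 5 alternatives as Efemp1 (adjusted p 0.0518 to 0.155). The block for age in days left 4 residual degrees of freedom. The causes were not tested. No paired analysis was possible because the numbers in the labels are animal numbers and no number occurs in more than 1 group.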
